A study of Homo sapiens with 6 samples.

Results

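The genes of the heterogeneous nuclear ribonucleoprotein (hnRNP) H/F family were examined in HK-2, a human cell line derived from the epithelium of the proximal tubule of the kidney. The family comprises HNRNPF, its close paralogs HNRNPH1, HNRNPH2 and HNRNPH3, and the more distant GRSF1. These 5 genes were found by symbol among the 31831 genes of the count table, 1 row each, and all 5 were among the 17142 genes that passed the filter on low counts. The RNA-seq data comprised 3 libraries of cells that carried a control vector (HG-NC, labelled as control plasmid and described in the methods as a control lentivirus) and 3 libraries of cells that carried the lentivirus for overexpression of HNRNPF (HG-OE). Per the methods of the study, both groups were cultured in medium with 30 mM glucose for 72 h, so the groups differ in the vector and not in glucose. The libraries held 25507595 to 29444841 counts. The study calls the libraries of a group biological replicates, but the labels do not say whether they came from separate cultures, and the p-values measure the spread between these libraries, which may be technical. The methods do not describe the transduced cells as clones, and the sequence carried by the vector was not examined here. The methods give the same gene ID for the construct in these human cells and for one in mouse cells, so the species of the construct is not settled here.

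The hnRNP F and H proteins bind runs of guanines in RNA through quasi-RNA recognition motifs, a variant of the RNA recognition motif. In the nucleus they bind G-rich stretches in introns and exons and promote or repress the use of nearby splice sites, and they also act in polyadenylation. HNRNPF has been studied in the kidney as a repressor of angiotensinogen transcription in proximal tubular cells. HNRNPH3 is a shorter member of the family that lacks the first of these motifs. GRSF1 is located mainly in mitochondrial RNA granules, where it takes part in the processing of mitochondrial transcripts.

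Since reads of close paralogs can be assigned to the wrong gene, the coding sequences were compared first. Identity was taken over the aligned bases of the coding sequences in the MANE Select transcripts of GENCODE (1 chosen transcript a gene). It was 77.8% between HNRNPF and HNRNPH1, 76.4% between HNRNPF and HNRNPH2 and 67.5% between HNRNPF and HNRNPH3. Of the 1245 coding bases of HNRNPF, 1242, 1242 and 946 were aligned in these pairs. The pair HNRNPH1 and HNRNPH2 was closest, at 87.6%, and its longest identical run was 50 bases. GRSF1 was 61.7% identical to HNRNPF over 1092 aligned bases. The stretch of 60 coding bases below is one where HNRNPH1, HNRNPH2 and HNRNPH3 together differ least from HNRNPF, among aligned stretches without gaps. Capitals mark bases that differ from HNRNPF at the same aligned position, 5 in HNRNPH1, 5 in HNRNPH2 and 12 in HNRNPH3, in the order of transcription on GRCh38 (chr10:43386841-43386900, minus strand, chr5:179617527-179617586, minus, chrX:101412973-101413032, plus, and chr10:68341237-68341296, plus).
HNRNPF: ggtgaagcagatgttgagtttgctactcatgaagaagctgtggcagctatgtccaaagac
HNRNPH1: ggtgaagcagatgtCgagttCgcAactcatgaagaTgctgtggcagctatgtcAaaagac
HNRNPH2: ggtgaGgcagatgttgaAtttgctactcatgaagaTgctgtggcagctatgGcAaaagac
HNRNPH3: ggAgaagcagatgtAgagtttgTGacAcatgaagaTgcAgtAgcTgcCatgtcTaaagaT

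In this stretch, each of these paralogs differed from HNRNPF by several bases. The stretch is not the most alike for each pair. The longest identical coding run was 38 bases between HNRNPF and HNRNPH1 and 50 bases between HNRNPH1 and HNRNPH2. No place elsewhere in GRCh38 matched at least 100 bases of any of the 5 transcripts at 95% identity or more. At 90% identity, however, 80.9% of the HNRNPH1 transcript, 50.2% of the HNRNPH2 transcript and 25% of the HNRNPF transcript had a match elsewhere, against 6.1% for HNRNPH3 and 8.3% for GRSF1. Reads were aligned with up to 4 mismatches and uniquely mapped reads were counted. HNRNPH1 and HNRNPH2 had the largest matched parts at 90% identity, and the effect on their levels was not tested. Of the matched loci, that overlapping ATF3 (at best 94.91% identity to HNRNPH1) and others were not looked up in the counts. The processed pseudogenes that share a symbol with the family held few counts. HNRNPH1P1 had 0, 2 and 1 counts in HG-NC and 1, 10 and 1 in HG-OE, and HNRNPH1P3 had 1, 0 and 1 in HG-NC and 0 in all HG-OE libraries.

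The members also differ in how their genes are built. HNRNPF (chr10:43385617-43409186, minus strand) and HNRNPH2 (chrX:101408222-101414133, plus strand) each carry the whole coding sequence in 1 exon. HNRNPH1 (chr5:179614178-179634784, minus strand) has 12 coding exons, and HNRNPH3 (chr10:68331174-68343193, plus strand) and GRSF1 (chr4:70815783-70839897, minus strand) have 9 each. GENCODE lists 49 transcripts for HNRNPH1, of which 19 retain an intron and 8 are targets of nonsense-mediated decay, against 8 transcripts for HNRNPF, 11 for HNRNPH3, 7 for GRSF1 and 1 for HNRNPH2. The counts are per gene, and each value below is a sum over all transcripts of that gene.

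Runs of at least 3 guanines, the kind of sequence to which these proteins bind, are present in the genes of the family themselves. The 60-base intron window with the most such runs is shown for 4 members, with the runs in capitals and read along the transcribed strand of GRCh38. The windows lie in intron 1 of HNRNPF (chr10:43408523-43408582), HNRNPH2 (chrX:101408328-101408387), HNRNPH3 (chr10:68332625-68332684) and GRSF1 (chr4:70838758-70838817).
HNRNPF: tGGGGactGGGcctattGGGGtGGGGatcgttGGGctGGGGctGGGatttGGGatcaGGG
HNRNPH2: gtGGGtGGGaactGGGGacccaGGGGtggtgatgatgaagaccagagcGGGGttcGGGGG
HNRNPH3: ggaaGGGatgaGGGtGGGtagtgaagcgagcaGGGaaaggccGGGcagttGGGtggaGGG
GRSF1: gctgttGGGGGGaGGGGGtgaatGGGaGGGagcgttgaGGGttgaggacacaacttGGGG

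The window of HNRNPF held 9 runs, while those of HNRNPH3, HNRNPH2 and GRSF1 held 7, 6 and 6. The introns searched hold 21000, 8774, 3616 and 17498 bases in that order, and a longer search can give a higher maximum. Over all introns, the density was 15.1 runs per kb in HNRNPF, 10.8 in HNRNPH1, 9.40 in HNRNPH2, 12.3 in HNRNPH3 and 12.5 in GRSF1. The median of 12907 tested genes with introns was 12.2 runs per kb, and 37.4% of them reached the density of HNRNPF, so intron density did not set the family apart. In the coding sequence, the runs per kb were 20.1 in HNRNPF, 14.8 in HNRNPH1, 17.1 in HNRNPH2, 22.2 in HNRNPH3 and 11.8 in GRSF1. The median of 13176 genes was 12.1, and 13.2%, 35.1%, 24.3%, 8.0% and 51.95% of them reached these values, in the same order. These are counts of letters, and binding was not measured in these libraries.

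HG-OE replicate 3 stood apart from the other libraries. Pairs with it differed by 11.1 to 11.5 chi-square units per gene, against 2.18 to 3.48 for the other pairs within a group. ALB, a hepatocyte marker, was at 149 CPM there and at 0.0 to 2.79 CPM in the other 5 libraries. The 8 squamous markers summed to 80.0 CPM there, against 6.43 to 8.97 CPM in the others, with KRT17 at 24.7 CPM. Some markers moved with the group as well: the 8 hepatocyte markers summed to 266 to 276 CPM in HG-NC against 461 to 624 in HG-OE, mainly SERPINA1. The 8 markers of HK-2 epithelium were all detected and summed to 1630 to 1710 CPM in HG-NC against 1780 to 2370 in HG-OE, with PAX8, KRT8 and KRT18 highest. Of the 7 tested, 3 rose and 3 fell: KRT8 was at 293 to 299 CPM in HG-NC and at 629 to 983 CPM in HG-OE, while PAX8 was at 603 to 655 CPM and at 408 to 472 CPM. Of the 8 proximal tubule markers, LRP2, CUBN, AQP1 and SLC34A1 were below 1 CPM in every library. The list summed to 4.68 to 6.83 CPM in HG-NC against 5.75 to 19.0 in HG-OE. Fibroblast markers summed to 33.3 to 43.7 CPM and immune and endothelial markers to 2.71 to 3.93 CPM over all libraries, with PTPRC, CD3E, PECAM1 and CDH5 below 1 CPM. In such bulk libraries, fewer cells of a type and less RNA per cell cannot be told apart. The part of these markers in the results below was not tested.

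HNRNPF and HNRNPH2 rose in HG-OE, HNRNPH3 and HNRNPH1 fell, and GRSF1 did not pass the test. By the quasi-likelihood test of edgeR, with p-values adjusted by Benjamini-Hochberg over all genes tested, 4 of the 5 genes had an adjusted p under 0.05. Among all genes, 51.8% did, 25.9% higher and 25.9% lower, and among the 5780 genes with a mean of at least 1000 counts 68.6% did, so 4 of 5 is close to the background and is no result about the family. A change of at least 2-fold was less common. It was reached with an adjusted p under 0.05 by 5.82% of all genes, 3.69% higher and 2.13% lower, and by 1.38% of genes with a mean of at least 1000 counts, and in the family by HNRNPH3 alone. In 4 of the 5 members the groups did not overlap, as in 59.0% of all genes, 29.6% higher and 29.4% lower.

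HNRNPF, the overexpressed gene, was measured at 304.1, 318.6 and 311.0 CPM (counts relative to the library size, scaled by TMM) in HG-NC and at 430.5, 451.8 and 423.3 CPM in HG-OE. Every HG-OE library was above every HG-NC library, in the direction of the labels. The mean was 311.2 ± 7.227 CPM (SD, n = 3) in HG-NC and 435.2 ± 14.85 CPM (SD, n = 3) in HG-OE, a 1.398-fold level. The log2 fold change was 0.48 (SE 0.04, 95% interval 0.40 to 0.57, adjusted p = 2.8e-07 by edgeR). The increase was thus below 2-fold, and 26.3% of all genes tested changed at least as much in either direction. Counts of HNRNPF do not tell transcripts of the vector from those of the chromosomal gene. Were the construct not of human sequence, its reads would be counted only where they aligned to the human gene with at most 4 mismatches, so the value is the level of counted reads and not a measure of the construct.

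HNRNPH3 showed the largest change of the family. It was measured at 292.2, 267.2 and 277.2 CPM in HG-NC and at 123.8, 116.4 and 124.9 CPM in HG-OE, so that the groups lay far apart. The mean fell from 278.9 ± 12.57 CPM to 121.7 ± 4.616 CPM (SD, n = 3 each), to a 0.4364-fold level. The log2 fold change was -1.20 (SE 0.05, 95% interval -1.29 to -1.10, adjusted p = 4.24e-10 by edgeR). Only 4.15% of all genes tested changed at least as much in either direction. PBLD and RUFY2 overlap HNRNPH3 on the opposite strand. PBLD had 9.936 ± 0.9338 CPM in HG-NC against 9.827 ± 0.4428 in HG-OE, and RUFY2 fell from 16.87 ± 1.021 to 13.42 ± 1.681 CPM (adjusted p = 0.0107 by edgeR). Both are far below the level of HNRNPH3, and whether the counting used strand is not stated.

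HNRNPH1, a splicing regulator, also fell. Its levels were 209.9, 217.3 and 223.4 CPM in HG-NC against 142.4, 137.3 and 161.7 in HG-OE, without overlap. The mean fell from 216.9 ± 6.755 to 147.1 ± 12.86 CPM (SD, n = 3 each), to a 0.6784-fold level, with a log2 fold change of -0.56 (SE 0.05, 95% interval -0.68 to -0.44, adjusted p = 1.77e-06 by edgeR). HG-OE replicate 3 was the highest of its group, and without it the log2 fold change was -0.63. The genes around HNRNPH1 moved the other way. Of 81 neighbours within 10 Mb with a mean of at least 100 counts, 68 rose and 3 fell, with a median log2 fold change of 0.47. Relative to that median, HNRNPH1 had a log2 fold change of -1.03. The part of the region in the value was not tested. These are RNA levels, and protein was not measured in these libraries. The study reports no significant change of hnRNP-H protein with overexpression, by densitometry. For that measurement it does not tell HNRNPH1 from HNRNPH2 and does not state the glucose level.

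HNRNPH2 rose by a smaller amount. It was measured at 66.19, 64.51 and 64.11 CPM in HG-NC and at 76.67, 75.56 and 79.01 CPM in HG-OE, again without overlap. The mean rose from 64.94 ± 1.103 to 77.08 ± 1.757 CPM (SD, n = 3 each), to a 1.187-fold level, with a log2 fold change of 0.25 (SE 0.04, 95% interval 0.16 to 0.34, adjusted p = 0.000273 by edgeR). Of all genes tested, 54.4% changed at least as much. The read-through locus RPL36A-HNRNPH2, which overlaps HNRNPH2 on the same strand, had 92, 133 and 131 counts in HG-NC and 167, 182 and 200 in HG-OE. It rose by a log2 fold change of 0.51 (SE 0.14, adjusted p = 0.00866 by edgeR), at 4.406 ± 0.6918 and 6.278 ± 0.5373 CPM. HNRNPH2 and HNRNPH1, the pair with the highest coding identity, moved in opposite directions.

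GRSF1, the mitochondrial member, was measured at 161.7, 157.2 and 154.6 CPM in HG-NC and at 161.7, 159.1 and 155.7 CPM in HG-OE, and the groups overlapped. The means were 157.8 ± 3.618 and 158.8 ± 3.023 CPM (SD, n = 3 each). The log2 fold change of 0.01 (SE 0.04, adjusted p = 0.858 by edgeR) had a 95% interval from -0.07 to 0.09. Its neighbours were lower in HG-OE: of 46 within 10 Mb, 33 fell and 4 rose, with a median log2 fold change of -0.34. Relative to that median the value of GRSF1 was 0.35, and the part of the region was not tested. The medians of the neighbours of HNRNPF, HNRNPH2 and HNRNPH3 were 0.09, 0.00 and -0.01.

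**Figure D1:**
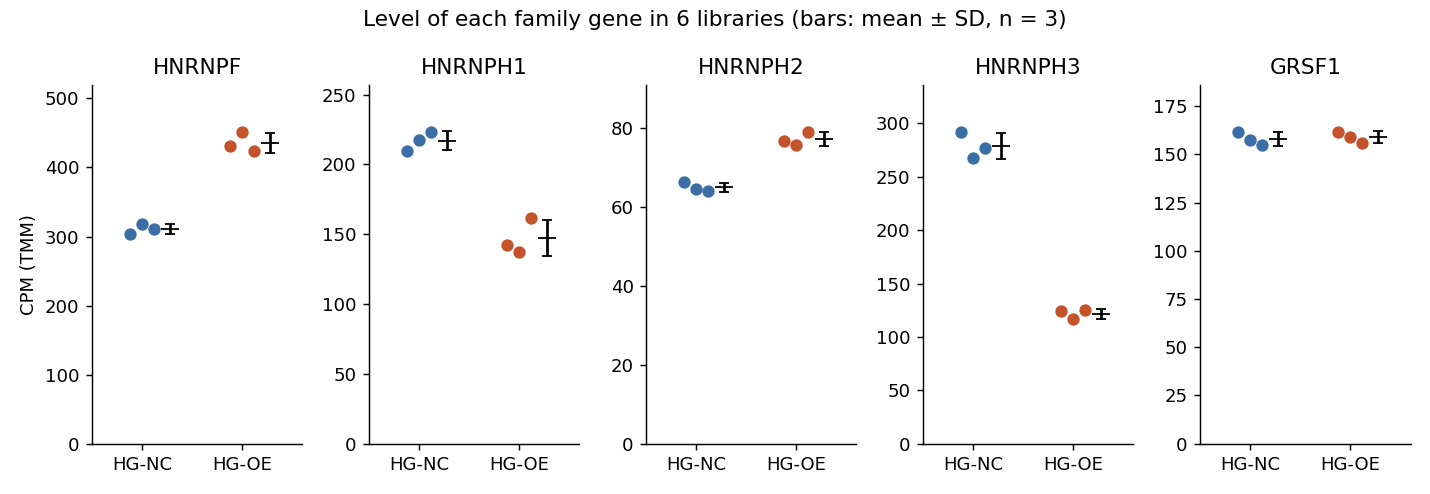
Level of each of the 5 genes in CPM (TMM-scaled, each panel with its own axis from 0) in the 3 HG-NC (blue) and 3 HG-OE (orange) libraries, with the mean and SD as black bars. HNRNPF and HNRNPH2 were higher in every HG-OE library, HNRNPH1 and HNRNPH3 were lower in every one, and GRSF1 overlapped.

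**Figure D2:**
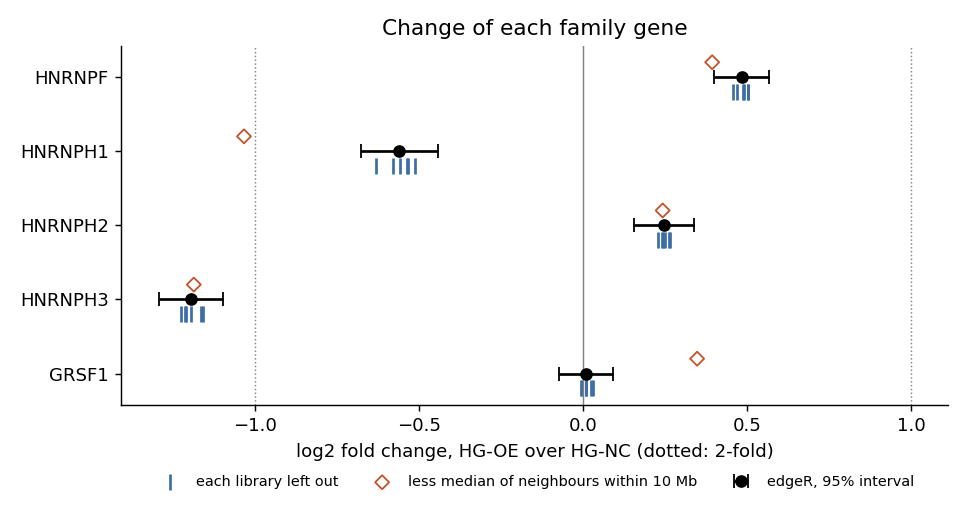
Log2 fold change of HG-OE over HG-NC for each gene with its 95% interval from edgeR (black), the 6 values with 1 library left out (blue ticks) and the value less the median of neighbours within 10 Mb (orange diamonds). HNRNPH3 at -1.20 lies beyond the dotted 2-fold line, and the diamonds move away from the black points for HNRNPH1 and GRSF1.

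The plot of levels per library shows the separation of the groups in 4 of the panels, and the plot of log2 fold changes shows that leaving out any 1 library moved none of these 4 genes across 0. An exact two-sided permutation test over the libraries gave p = 0.1 for each of the 4 genes and p = 0.7 for GRSF1 (n = 3 against 3). With this design 0.1 is the smallest p that test can give.

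**Figure D3:**
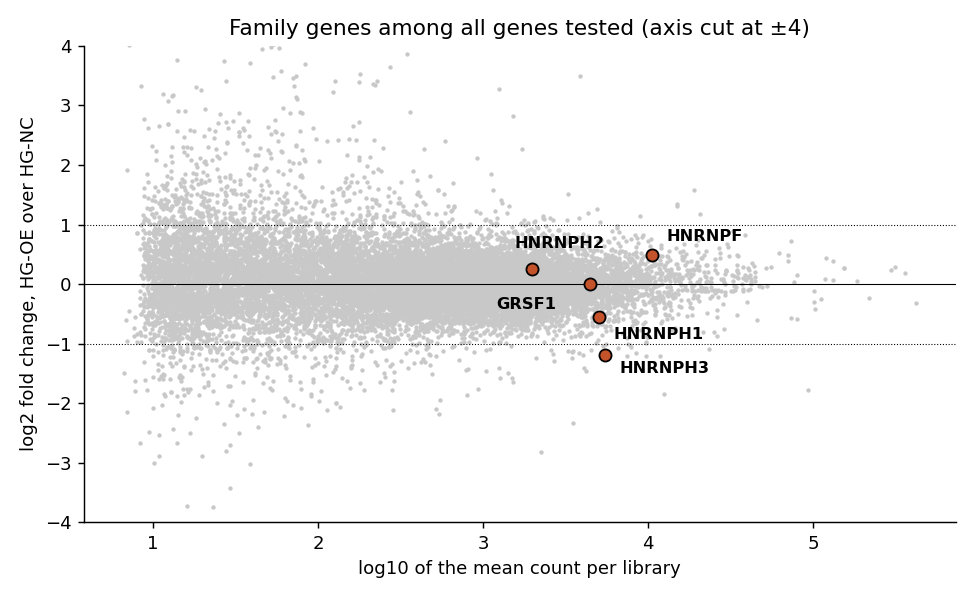
Log2 fold change of HG-OE over HG-NC against the log10 of the mean count per library for all 17142 genes tested (grey) and the 5 family genes (orange). HNRNPH3 lies below the 2-fold line among well-counted genes, while the other 4 lie inside it.

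The plot against mean count places the family among highly counted genes, where few genes lie beyond the 2-fold lines.

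The levels of the members can be compared with each other only per length. In FPKM, as the authors deposited them, HNRNPF was highest in HG-NC at 85.07 ± 2.037, followed by HNRNPH3 at 46.42 ± 2.051, HNRNPH2 at 25.3 ± 0.3637, HNRNPH1 at 20.47 ± 0.71 and GRSF1 at 18.25 ± 0.3606 (SD, n = 3 each). In HG-OE the order was HNRNPF at 117.6 ± 3.537, HNRNPH2 at 29.71 ± 0.7453, HNRNPH3 at 20.04 ± 0.855, GRSF1 at 18.17 ± 0.406 and HNRNPH1 at 13.74 ± 1.215. HNRNPH3 thus went from the second to the third place and HNRNPH1 from the fourth to the last. Neighbours in these orders did not overlap between libraries. This order rests on the length by which the counts were divided. The lengths implied by the FPKM values were 1.12 times the summed exons of all annotated transcripts for every member. They were computed with the sum of counts as the library size, so this shared factor depends on that choice. For HNRNPH1 those exons span 9480 bases, 4.23 times its MANE Select transcript of 2240 bases. The corresponding ratio was 2.28 for HNRNPH3, 1.27 for HNRNPF, 1.17 for GRSF1 and 1.0 for HNRNPH2.

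Per kb of the MANE Select transcript, a scale added after the FPKM values had been seen, HNRNPF and HNRNPH3 stood side by side in HG-NC at 121.1 ± 2.813 and 118.4 ± 5.336 CPM per kb, within their spread. HNRNPH1 followed at 96.82 ± 3.016, then HNRNPH2 at 28.28 ± 0.4806 and GRSF1 at 23.88 ± 0.5474. In HG-OE, HNRNPF stood alone at 169.4 ± 5.782 CPM per kb, above HNRNPH1 at 65.69 ± 5.741, HNRNPH3 at 51.65 ± 1.959, HNRNPH2 at 33.57 ± 0.7655 and GRSF1 at 24.03 ± 0.4573. HNRNPH1 was therefore the lowest or the second highest member of HG-OE, depending on the length used.

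Summed over the family, gains and losses offset each other in part. In CPM, HNRNPF gained 124.0 and HNRNPH2 12.14, GRSF1 differed by 0.986, and HNRNPH3 changed by -157.2 and HNRNPH1 by -69.7. The total was 1034, 1025 and 1030 CPM in HG-NC against 935.1, 940.2 and 944.6 in HG-OE, a ratio of means of 0.9128. In FPKM, the total was 195.5, 195.1 and 195.9 in HG-NC and 199.3, 200.3 and 198.3 in HG-OE, a ratio of 1.019, and per kb of the MANE Select transcript the ratio was 0.8864. The groups did not overlap on any of the 3 scales, and each exact permutation test gave p = 0.1, the smallest possible. The direction of the total thus depended on the length used. Without HNRNPF, the other 4 genes summed to 718.5 ± 11.93 CPM in HG-NC against 504.7 ± 16.48 in HG-OE, a ratio of 0.7025, and this ratio was 0.7393 in FPKM and 0.6544 per kb of the MANE Select transcript.

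The composition changed more than the total. In FPKM, the share of HNRNPF in the family was 42.4%, 44.6% and 43.6% in HG-NC and 58.7%, 60.6% and 57.7% in HG-OE, a gain of 15.5 percentage points. The share of HNRNPH3 was 24.8%, 22.8% and 23.7% in HG-NC and 10.3%, 9.51% and 10.4% in HG-OE, a change of -13.7 points. HNRNPH1 went from 10.5% ± 0.352 to 6.89% ± 0.643 and HNRNPH2 from 12.9% ± 0.187 to 14.9% ± 0.446 (SD, n = 3 each). GRSF1, at 9.33% ± 0.19 and 9.12% ± 0.192, overlapped. The exact permutation p, adjusted over the 5 shares, was 0.125 for each of the first 4 and 0.3 for GRSF1, and the smallest unadjusted p is 0.1. The shares of HNRNPF, HNRNPH1, HNRNPH2 and HNRNPH3 moved in the same directions in CPM and per kb of the MANE Select transcript, on which HNRNPF went from 31.2% ± 0.858 to 49.2% ± 1.92. The share of GRSF1 did not keep its direction: it was higher in HG-OE by 1.57 points in CPM and by 0.833 points per kb of the MANE Select transcript.

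**Figure D4:**
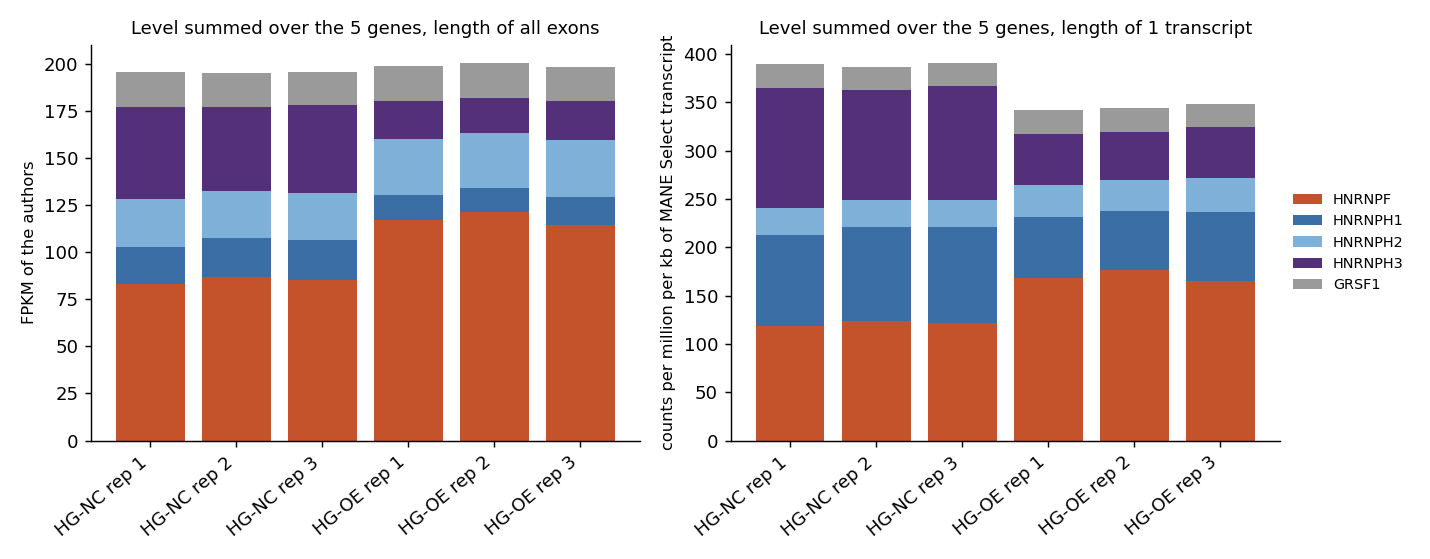
Level of the 5 genes stacked in each library, in FPKM of the authors (left) and in CPM per kb of the MANE Select transcript (right). The HNRNPF segment is taller and the HNRNPH3 segment shorter in every HG-OE library, while the height of the whole bar changes by 1.019-fold on the left and 0.8864-fold on the right.

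The stacked bars show the same exchange on both scales. Expressed as a ratio of FPKM, HNRNPF stood at 1.84 ± 0.125 times HNRNPH3 in HG-NC and at 5.88 ± 0.431 times in HG-OE. Its ratio to HNRNPH1 was 4.16 ± 0.113 and 8.62 ± 0.981, to GRSF1 4.66 ± 0.19 and 6.48 ± 0.215, and to HNRNPH2 3.36 ± 0.126 and 3.96 ± 0.219 (SD, n = 3 each). With 1 length per gene in both groups, the change of a ratio does not depend on that length. It was 3.2-fold against HNRNPH3, 2.07-fold against HNRNPH1, 1.39-fold against GRSF1 and 1.18-fold against HNRNPH2. The length of transcripts from the vector was not examined, and HNRNPF values per length in HG-OE, with their ratios, would depend on it. For every pair, each HG-OE library was above each HG-NC library.

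The other hnRNP genes moved both ways. Of 23 tested, 6 rose, 10 fell and 7 did not pass the test, and none reached 2-fold. The 69.6% called is close to the 68.6% of genes with a mean of at least 1000 counts and above the 51.8% of all genes, and is not read as a result about the list. Their median log2 fold change was -0.01, beside 0.01 over all genes tested. Of the genes that fell, HNRNPD, which binds AU-rich elements, had 426, 420 and 401 CPM in HG-NC against 253, 257 and 270 CPM in HG-OE (log2 fold change -0.68, SE 0.04, adjusted p = 1.8e-08 by edgeR). HNRNPLL, a splicing regulator, changed by -0.66 on the same scale. HNRNPAB, at 0.54, and HNRNPA0, at 0.60, had the largest increases. The fall of HNRNPH3 was larger than that of any of these 23 genes.

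Among 28 genes of the mitochondrial RNA granule and of mitochondrial RNA processing, the compartment of GRSF1, 7 rose, 11 fell and 10 did not pass the test, with a median log2 fold change of 0.00. The 64.3% called lies between the same background shares, 51.8% and 68.6%. PNPT1, a subunit of the mitochondrial RNA degradosome, fell from 64.01 ± 3.172 to 39.92 ± 2.159 CPM (log2 fold change -0.68, SE 0.06, adjusted p = 3.7e-07 by edgeR), and FASTKD2 fell by 0.62 on the log2 scale. RPUSD3, a pseudouridine synthase, rose from 22.97 ± 1.273 to 41.57 ± 0.5864 CPM (0.85, SE 0.06, adjusted p = 6.17e-08 by edgeR), followed by TRUB2 at 0.49.

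Of the 13 mRNAs encoded by the mitochondrial genome, on which GRSF1 acts, 8 rose, 1 fell and 4 did not pass the test, with a median log2 fold change of 0.19. The 69.2% called is close to the 68.6% of well-counted genes, and 25.9% of all genes were called higher. With limma on log2(FPKM + 1) without a filter, 4 rose. MT-ND6, the mRNA from the light strand, had 255, 251 and 200 CPM in HG-NC against 371, 402 and 363 in HG-OE (log2 fold change 0.69, SE 0.07, adjusted p = 4.53e-06 by edgeR). Since the use of strand in counting is not stated, RNA of the opposite strand cannot be told apart there. MT-ND5 and MT-CYB rose by 0.49 and 0.43, and MT-ND2 fell by 0.11 on the log2 scale (adjusted p = 0.0451 by edgeR). The call of MT-ND2 was lost in 10 of 14 alternatives, with adjusted p from 0.000293 to 0.423 over all 14. The 13 mRNAs together took 5.985%, 6.17% and 5.858% of all counts in HG-NC and 6.699%, 6.932% and 6.881% in HG-OE. The groups did not overlap, and the exact permutation p was 0.1 (n = 3 against 3). GRSF1 itself stayed within the spread of its libraries, as given above.

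Of 8 helicases that act on G-quadruplexes, the folded form that runs of guanines can take, 2 rose and 4 fell. EIF4A2 fell from 354.9 ± 8.275 to 218.7 ± 6.126 CPM (log2 fold change -0.70, adjusted p = 1.01e-08 by edgeR) and DHX36 from 68.65 ± 4.597 to 43.83 ± 3.284 CPM (-0.65, adjusted p = 1.77e-06 by edgeR). DDX17 rose from 172.1 ± 1.24 to 257.8 ± 3.474 CPM (0.58, adjusted p = 2.72e-08 by edgeR). Their median log2 fold change was -0.13, and 6 of 8 called stands beside 68.6% of well-counted genes and 51.8% of all genes.

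Of genes linked to hnRNP F in the kidney, BMF rose, and NFE2L2, SIRT1 and METTL14 fell. Of all genes 51.8% were called in either direction, and 68.6% of well-counted genes. The study cites earlier work in which hnRNP F took part in the inhibition of a Bcl2 modifier by insulin and stimulated Sirtuin-1. It also cites activation of Mettl14 when hnRNP F was deficient. The directions of BMF and SIRT1 here were opposite to those reports, and that of METTL14 was not. BMF, a pro-apoptotic member of the BCL2 family, rose from 9.106 ± 1.069 to 19.69 ± 3.13 CPM (log2 fold change 1.11, adjusted p = 3.85e-06 by edgeR), and without HG-OE replicate 3 by 0.98, below 2-fold. NFE2L2, a transcription factor of the antioxidant response, fell from 221.0 ± 4.65 to 148.4 ± 7.405 CPM (-0.57, adjusted p = 1.63e-07 by edgeR). SIRT1, a deacetylase, changed by -0.42 and METTL14, an RNA methyltransferase subunit, by -0.34. AGT, which encodes angiotensinogen, had 311, 331 and 333 counts in HG-NC and 264, 301 and 790 counts in HG-OE. Its log2 fold change was 0.35 over all libraries (adjusted p = 0.342 by edgeR) and -0.32 without HG-OE replicate 3 (adjusted p = 0.00676 by edgeR), so its direction rested on that library.

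**Figure D5:**
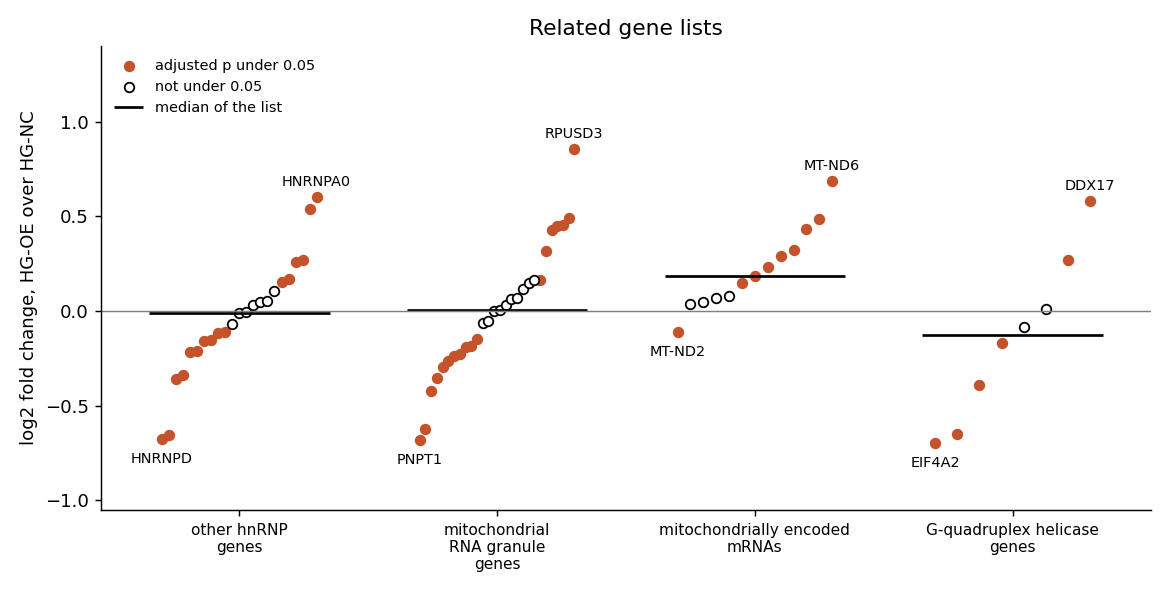
Log2 fold change of HG-OE over HG-NC for each tested gene of 4 of the related lists (orange, adjusted p under 0.05; open, not), with the median of each list as a line and the extremes named. The mitochondrially encoded mRNAs lie mostly above 0, while the other lists spread to both sides.

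The plot of the lists shows medians between -0.13 and 0.19. The lists were written from general knowledge with earlier results of these libraries known, and no test of a list as a whole was made.

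The 5 genes with the profile most like that of HNRNPF over the 6 libraries, by the root mean square difference of log2 CPM from the HG-NC mean among 12364 genes, were TCTA (0.0178), TPGS2 (0.0194), PGLS (0.0216), CD81 (0.0221) and GUK1 (0.0222). The measure includes the change between groups, so their log2 fold changes, 0.47 to 0.51, lie close to the 0.48 of HNRNPF by construction. For the same reason the other members, which changed by other amounts, were not among them.

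Without HG-OE replicate 3, the log2 fold changes were 0.50 for HNRNPF, -0.63 for HNRNPH1, 0.23 for HNRNPH2, -1.21 for HNRNPH3 and 0.02 for GRSF1, so no call in the family rested on that library. The counts called were then 17 of 23 other hnRNP genes, 17 of 28 mitochondrial RNA granule genes, 9 of 13 mitochondrially encoded mRNAs and 7 of 8 helicases, beside 53.9% of all genes tested.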

How the data were processed

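RNA-seq libraries of polyadenylated RNA from HK-2 cells were sequenced as read pairs. Per the labels and methods, the authors prepared directional libraries (the labels also name a stranded total RNA kit in a line that reads as an example) and aligned reads to GRCh38 with HISAT2, allowing 4 mismatches. The deposited counts hold, as whole numbers, the uniquely mapped reads of each gene, and the deposited FPKM carry 2 decimals. ComBat_seq is named for batch correction, but batches, and whether it entered these counts, are not stated, so no batch was fitted. Strand use in counting is not given in the sources used here.

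Groups were compared with edgeR 4.0.16 in R 4.3.3 (TMM, default low-count filter, quasi-likelihood test, Benjamini-Hochberg), keeping 17142 of 31831 genes. Per-library values are TMM-scaled CPM. Exact two-sided permutation tests were run on sums and shares. Alternatives were DESeq2 1.42.0, limma 3.58.1 on log2(FPKM + 0.1) and on log2(FPKM + 1), the latter also without the filter of a mean FPKM of at least 0.1, other count filters, each library left out, a replicate block, other lengths and subtraction of the median of neighbours. The fit was tested on simulated data. Sequences came from GRCh38 and GENCODE release 44, with matches elsewhere from BLAST 2.17.0. Intervals cover these libraries only, and the floor for a gene with 0 counts is 3 counts a library.

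The members and lists were chosen with earlier results of these data known. The genes named were the 5 members, loci that share their symbols or overlap them, those of each list with the lowest adjusted p in each direction, kidney genes, and the 5 profiles most like HNRNPF. An item of the kidney list and a sequence are not reported here. ALB, KRT17 and single markers were named after their values were seen.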

Additional observations from a re-analysis of the deposited data

How the results depend on the processing

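Of 233 recomputed values, 209 were classed as unchanged. These kept their direction and their side of the threshold, stayed within the spread or, for counts of genes called, changed moderately. Among such counts, all genes called went from 8887 to as few as 7065, and other hnRNP genes called from 16 to as few as 12. The calls of HNRNPF, HNRNPH1, HNRNPH2 and HNRNPH3 held under every alternative that gave a test. Subtraction of the neighbours' median, which gives no test, left log2 fold changes of 0.39 for HNRNPF, -1.03 for HNRNPH1 and 0.35 for GRSF1. The value of GRSF1, close to 0, turned to -0.0058 without the low-count filter, to -0.0061 with limma on log2(FPKM + 1), with or without the filter, to -0.0064 on log2(FPKM + 0.1), and ranged from -0.0053 to 0.0293 with 1 library left out. The 997 genes past 2-fold became 1539 without the filter, 617 with at least 10 counts in every library, and 144 or 138 with limma on log2(FPKM + 1), with or without the filter, a scale on which low genes change less by construction. The 9 mitochondrially encoded mRNAs called became 4 with limma without the filter. The ratio of the family total in CPM was 0.8959 without GRSF1, and that in FPKM was 0.8864 per kb of the MANE Select transcript. Changes of shares per kb of that transcript were 18.0 points for HNRNPF, -5.85 for HNRNPH1, 2.47 for HNRNPH2, -15.5 for HNRNPH3 and 0.833 for GRSF1. In CPM they were -5.41 for HNRNPH1 and 1.57 for GRSF1, and without GRSF1 -15.1 for HNRNPH3. Apart from the lengths, which set the last group by construction, the cause was not tested. The replicate numbers did not pair the libraries (correlations of same-numbered deviations -0.0273, 0.0301 and -0.000993). With the replicate block, 8849 genes were called against 8887, HNRNPF was at 0.48 and HNRNPH3 at -1.20, and no call in the family changed. With 3 libraries a group, an exact test cannot go below p = 0.1. Whether the levels of HNRNPH1 and HNRNPH2 depend on how reads of similar loci were assigned was not tested.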
